A study of Mus musculus with 7 samples.

Results

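The genes described here make up the route by which newly made secretory proteins enter the endoplasmic reticulum (ER), are cut, glycosylated and folded there, and leave it. The set holds 51 of the 21631 protein-coding genes in the annotation: 15 of the translocon and signal recognition particle, 5 of signal peptidase, 6 of oligosaccharyltransferase, 8 protein disulfide isomerase genes, 9 chaperones and co-chaperones, 6 of ER-associated degradation and 2 of the COPII coat. Accessible regions were assigned to them by position: a region belonged to a gene when that gene was the nearest protein-coding gene to the region's summit, within 50 kb. This gave 335 of the 140286 regions in the untreated list, 331 of 164684 in the day 1 list, 326 of 145337 in the day 7 list and 362 of 130149 in the day 28 list. A region with its summit within 1 kb of either annotated end of its gene is called a gene-end region, and the others are called distal, whether they lie inside or outside the gene.

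Open chromatin was mapped with ATAC-seq, which relies on cutting by Tn5 transposase, in epithelial cells purified from digested pancreas of C57BL/6J wild-type mice. The mice were untreated, or were examined 1, 7 or 28 days after acute inflammation was induced with caerulein, a peptide that overstimulates the exocrine pancreas. Each group was 1 library and 1 peak list, so differences between groups could not be set against a spread between replicates, and no p-value was computed. A further 3 samples, of DCLK1-positive cells from Dclk1-DTR-ZsGreen mice, were not analysed here.

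As background, acinar cells of the pancreas make digestive enzymes in very large amounts and carry an extensive rough ER. The signal recognition particle brings a nascent enzyme to the Sec61 channel, signal peptidase removes its signal sequence, oligosaccharyltransferase adds N-linked sugars, chaperones and disulfide isomerases fold it, misfolded copies are returned to the cytosol for degradation, and COPII vesicles carry the rest to the Golgi. Many of these genes are known targets of the unfolded protein response, whose factors ATF6 and XBP1 act through the ER stress response element (ERSE), a CCAAT box followed at a fixed distance by CCACG.

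The libraries differed in depth and enrichment, which bears on every count below. In the untreated, day 1, day 7 and day 28 libraries the background pileup, worked out from the fold and p of each peak, was 5.07, 5.35, 2.72 and 2.52, and the median of the authors' fold enrichment minus 1 in the 59902 regions common to all 4 lists was 7.40, 16.6, 15.1 and 11.5 in the same order. Folds are therefore compared within a list only. Where folds from several lists are printed side by side, they are not scaled to each other and do not measure a change. The labelled cell type was checked against marker genes. The 23 digestive enzyme genes had 266, 59, 151 and 282 linked regions in untreated, day 1, day 7 and day 28 epithelium. At day 1, 14 of the 23 had a region, with Amy2b, Cel, Cpb1, Ctrl, Gp2, Klk1, Prss1, Prss3 and Rnase1 at 0, against 21 in untreated epithelium, where Prss1 and Prss3 were at 0. The 7 ductal markers had 91, 70, 83 and 86 regions, and all 7 had at least 1 in each list. Of genes from other cells, 7 fibroblast markers had 85, 147, 116 and 95 regions, with Lum at 0 in untreated epithelium only; 7 endothelial markers had 87, 89, 97 and 58, with none at 0; 7 leukocyte markers had 15, 28, 18 and 12, with, among others, Cd3e at 0 in untreated and day 1 epithelium and Lyz2 in all lists but that of day 7; and 7 endocrine markers had 13, 10, 14 and 12, with Iapp at 0 in every list, Ins1 in untreated and day 1 epithelium, Pcsk1 at day 1 and Ins2 at day 28. Fewer cells of a type and less signal per cell cannot be told apart in these bulk libraries, and the part that the mix of cells plays in the counts below was not tested.

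Promoter sequence from RefSeq (build GRCm38.p6, the window from 250 bases before to 50 bases after a start site) was given for 42 of the 51 genes. An exact ERSE, that is CCAAT, a spacer of 9 bases and CCACG on either strand, was present in 6 of these 42 (14.3%), against 29 of 17274 genes with such a window (0.168%). The 6 stretches are shown because they hold the element named above; capitals mark the paired elements, and each is printed on the strand on which CCAAT comes first.
Calr (chr8:84847067-84847101, plus strand): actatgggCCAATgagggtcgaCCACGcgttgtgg
Canx (chr11:50325792-50325826, minus strand): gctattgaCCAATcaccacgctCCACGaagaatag
Creld2 (chr15:88819512-88819546, minus strand): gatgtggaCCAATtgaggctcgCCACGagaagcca
Derl3 (chr10:75893234-75893268, minus strand): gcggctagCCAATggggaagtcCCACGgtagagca
Dnajc3 (chr14:118937819-118937853, plus strand): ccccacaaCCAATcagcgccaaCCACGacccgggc
Pdia6 (chr12:17266483-17266517, plus strand): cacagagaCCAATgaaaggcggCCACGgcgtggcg
The stretches belong to the lectin chaperone genes Calr and Canx, to Creld2, whose product resides in the ER, to Derl3, a derlin of the degradation pathway, to the co-chaperone gene Dnajc3 and to the disulfide isomerase gene Pdia6. Read along the gene, the element began 162, 145, 126, 156, 105 and 98 bases before the start site of Calr, Canx, Creld2, Derl3, Dnajc3 and Pdia6. At Calr, Creld2 and Derl3 it lay on the strand opposite to the gene, so this is its CCACG end. At the others it is the CCAAT end. Every one of the 6 stretches lay inside a peak in each of the 4 lists.

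A single further gene, Dnajb11, whose product ERdj3 assists the Hsp70 chaperone BiP, held the related ERSE-II, ATTGG and CCACG separated by 1 base, which was found in 11 of 17274 genes (0.0637%). It lay just after the annotated start site, and inside a peak in all 4 lists.
Dnajb11 (chr16:22857844-22857870, plus strand): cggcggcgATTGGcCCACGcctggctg
The element TGACGTGG was present at Sec24d alone, against 0.834% of all genes, the AP-1 motif TGANTCA at Sec61b and Srp14 (4.76% of 42 genes, against 8.19%), and the cyclic AMP element TGACGTCA at none of the 42, against 2.58%. All motifs were searched on both strands. The shorter pieces were also common in the set: CCAAT stood in the windows of 30 of 42 genes (71.4%, against 42.7%) and CCACG in 32 (76.2%, against 40.9%). The windows of the set had a median GC content of 62.3% and 23 CpG dinucleotides, against 56.7% and 13 in all windows. A match is a description of the letters and not of binding.

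The promoters of these genes were accessible at every time with 1 exception. In the untreated, day 1, day 7 and day 28 lists a peak covered the promoter window of 42, 41, 42 and 42 of 42 genes, against 64.5%, 64.8%, 65.2% and 63.7% of the 17274 genes. The missing one was Pdia2 at day 1. Pdia2 encodes a disulfide isomerase known to be made mainly in the pancreas. Its window and that of Derl3, the gene whose promoter peak lost most in rank, are shown here; capitals in the Derl3 window mark the ERSE read on the opposite strand, and the Pdia2 window has neither form of ERSE.
Derl3 (chr10:75893148-75893447, plus strand): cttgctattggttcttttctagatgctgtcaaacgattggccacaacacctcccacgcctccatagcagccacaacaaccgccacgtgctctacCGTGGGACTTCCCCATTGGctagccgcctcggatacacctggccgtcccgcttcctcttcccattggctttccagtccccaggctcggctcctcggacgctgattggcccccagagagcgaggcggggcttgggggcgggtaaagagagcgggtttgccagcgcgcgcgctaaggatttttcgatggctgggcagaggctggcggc
Pdia2 (chr17:26199038-26199337, minus strand): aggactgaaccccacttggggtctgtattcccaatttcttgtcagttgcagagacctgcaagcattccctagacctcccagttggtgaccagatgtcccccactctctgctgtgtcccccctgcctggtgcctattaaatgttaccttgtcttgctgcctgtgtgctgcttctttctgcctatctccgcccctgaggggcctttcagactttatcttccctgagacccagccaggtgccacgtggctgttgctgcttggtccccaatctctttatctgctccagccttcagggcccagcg
At Pdia2 the strongest peak over the window had a fold of 31.8 in untreated epithelium, 8.06 at day 7 and 17.6 at day 28, and no peak at day 1. Its summit lay nearer to a neighbouring gene, Rgs11 in the untreated list and Arhgdig at days 7 and 28. The regions assigned to Pdia2 itself numbered 5, 0, 3 and 3 in untreated, day 1, day 7 and day 28 epithelium, so that no day 1 region was assigned to it.

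The strength of the promoter peak was compared by rank, over 41 genes of the set among the 10516 genes that had a peak over a window in all 4 lists. The median percentile of the set was 86.4, 86.1, 84.2 and 85.4 in untreated, day 1, day 7 and day 28 epithelium, and 16, 16, 15 and 18 of the 41 genes were above percentile 90. Of the 41 genes, 27 at day 1, 27 at day 7 and 35 at day 28 were within 5 percentile points of their untreated rank. Over all 10516 ranked genes the share was 37.5%, 43.5% and 66.3%. The set started near the top of the scale, with 27 of 41 genes above percentile 80 in untreated epithelium. That limits how far they could rise, so the counts and the shares of all genes are not a like comparison. At day 1, 19 genes ranked higher and 22 lower than in untreated epithelium, with a median change of -0.11 points. These are descriptions over genes that had to have a peak in every list. For Sec61b, Rpn2, Pdia3, Erp44 and Dnajb11 the ranked peak was assigned to another gene in every list (Alg2, Mroh8, Catsper2, Invs and Tbccd1). For Spcs1 it was assigned to Glt8d1 at days 7 and 28.

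The 3 highest untreated ranks were those of P4hb, Edem3 and Dnajb9. P4hb, the disulfide isomerase that is also a subunit of prolyl hydroxylase, was at percentile 99.4, 99.8, 99.6 and 99.7 in untreated, day 1, day 7 and day 28 epithelium. Edem3, for a mannosidase-like protein of ER-associated degradation, was at 99.3, 93.6, 91.5 and 98.4, and Dnajb9, for the co-chaperone ERdj4, at 99.2, 96.3, 97.1 and 98.7. Dnajc3, which encodes the BiP co-chaperone p58IPK, was at 99.1, 99.0, 99.8 and 99.9, and Pdia4, another disulfide isomerase gene, at 99.2, 99.1, 99.4 and 98.9. The median of the 7 chaperone genes ranked was 97.1, 96.3, 97.1 and 97.4, that of the 5 degradation genes was 94.2, 93.6, 85.8 and 94.7, that of the 7 disulfide isomerase genes was 85.5, 86.1, 80.0 and 84.7, and that of the 11 translocon and signal recognition particle genes was 69.6, 72.4, 68.7 and 63.2. The lowest untreated rank was that of Srprb, for the membrane-anchored subunit of the signal recognition particle receptor, at 32.0; Srp72, for a protein of the particle, was lowest at day 1, at percentile 21.6 there and 38.8 in untreated epithelium. In untreated epithelium 37 of 41 genes lay above percentile 50.

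A rank change of at least 20 points at day 1 occurred at 2 genes. Derl3, whose product helps extract misfolded proteins from the ER and is abundant in secretory cells, was at percentile 94.2, 50.2, 69.2 and 94.7 in untreated, day 1, day 7 and day 28 epithelium, with folds of 119, 56.3, 84.9 and 184. Srp14, for a signal recognition particle protein, was at percentile 50.3, 74.8, 56.9 and 49.6. Day 28 ranks of both were within 1 point of the untreated ones. A fall of at least 20 points was seen in 8.47% of all ranked genes at day 1, and a rise of that size in 7.94%. Such a rise was out of reach for the 27 genes of the set above percentile 80. Edem2 ranked 15.9 points higher at day 1 than in untreated epithelium, and the ranks of Srp72 and Rpn1 dropped by 17.2 and 14.7 points.

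**Figure D1:**
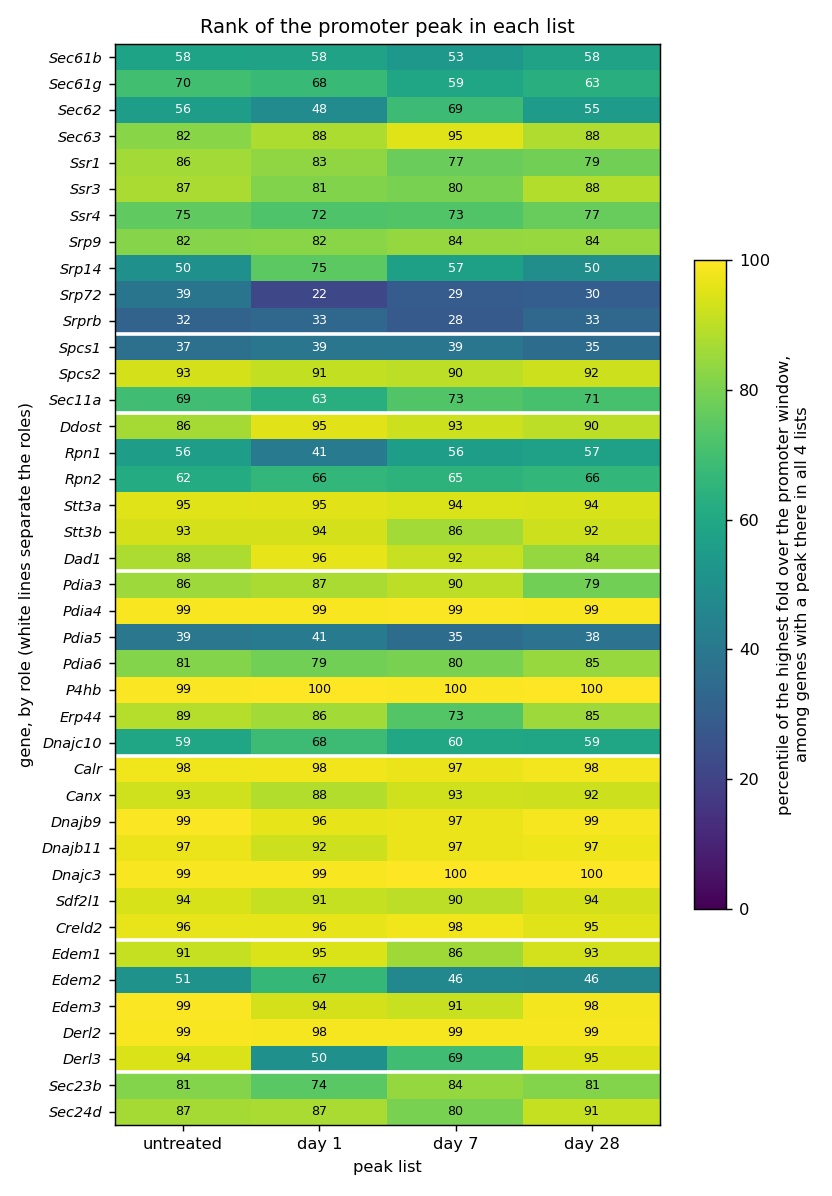
Percentile of the highest fold over the promoter window (colour and printed value) of 41 genes in untreated, day 1, day 7 and day 28 epithelium, among 10516 genes with a peak there in all 4 lists; white lines separate the roles. Most rows keep nearly the same colour across the lists, and Derl3 shows the largest drop, to percentile 50.2 at day 1, against 94.2 in untreated epithelium.

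Regions at gene ends were also mostly kept, and those that disappeared were weak. Of the 72 untreated gene-end regions of the set, 16 (22.2%, exact 95% interval 13.3 to 33.6%) overlapped no day 1 peak, against 17.4% of all gene-linked gene-end regions. At day 7 it was 12 (16.7%, against 15.5%) and at day 28 it was 6 (8.33%, against 14.7%). With gene ends drawn at 500 bp the direction against all genes turned at day 1, with 5 of 50 lost (10.0%, against 12.7%), and at day 7, with 3 of 50 (6.0%, against 10.4%). The 16 regions lost at day 1 had untreated folds of 3.13 to 11.4 with a median of 4.37, and the 56 kept ones a median of 76.5; the median widths were 206.5 and 1318.5 bp. New gene-end regions were few. Of 59 day 1 regions 5 (8.47%, interval 2.81 to 18.7%) overlapped no untreated peak, against 21.4% of all gene-linked ones, and it was 6 of 69 (8.70%, against 15.3%) at day 7 and 6 of 70 (8.57%, against 10.9%) at day 28. Intervals cover counting error only, and regions of 1 gene are not independent of each other. Gene-end regions of the set were also stronger and wider than all gene-linked ones. Their median fold was 43.5, against 11.4, in untreated epithelium and 75.9, against 18.6, at day 1. The median widths were 1185 bp, against 677, and 1275 bp, against 852. Shares of gene-end regions, here and below, are therefore not a like comparison with those of all genes.

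At the level of genes, 47 of the 51 had a gene-end region in untreated epithelium. All such regions were lost at 3 of the 47 at day 1 (Pdia2, Rpn2 and Spcs2), against 7.5% of the 13339 genes with one, and at 1 of 47 (Spcs2) at day 7 and at day 28, against 5.38% and 5.65%. The same genes were those that lost their strongest gene-end region, 3 of 47 at day 1, 1 at day 7 and 1 at day 28, against 8.32%, 5.92% and 6.22% of all genes. Only at Pdia2 did this include a start-side region of some strength, with untreated folds of 11.2 on the start side and 11.4 on the far side. Rpn2, a subunit of oligosaccharyltransferase, lost a far-side region with a fold of 3.30, and Spcs2, a subunit of signal peptidase, a far-side region with a fold of 3.95; both promoter windows had a peak in all 4 lists. Edem1, Erp44, Pdia3 and Sec61b had no gene-end region in any list, and Spcs1 had none at days 7 and 28. The Spcs1 window still had a peak at days 7 and 28, with folds of 48.6 and 47.4. Its summit was assigned to the overlapping gene Glt8d1, and no untreated region of Spcs1 was lost at any time. The peaks over the promoters of Erp44, Pdia3 and Sec61b lay nearest to Invs, Catsper2 and Alg2, and the promoter peaks of Edem1, Sec24d and Spcs2 lay 4489, 2554 and 11320 bp inside the annotated gene in untreated epithelium and so counted as distal. Another coding gene lay within 1 kb of 20 of the 51 genes, so a shared promoter cannot be told apart from the gene's own.

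Distal regions turned over much more. At day 1, 125 of the 263 untreated distal regions (47.5%, interval 41.4 to 53.8%) had no peak, against 40.8% of all gene-linked distal regions. At day 7 the count was 109 (41.4%, interval 35.4 to 47.7%), against 34.9%, and at day 28 it was 61 (23.2%, interval 18.2 to 28.8%), against 28.9%. Gains ran the other way. Of 272 day 1 distal regions 129 (47.4%, interval 41.4 to 53.5%) were absent from untreated epithelium, against 54.4% of all gene-linked ones; of 257 at day 7 it was 89 (34.6%, interval 28.8 to 40.8%), against 37.2%; and of 292 at day 28 it was 98 (33.6%, interval 28.2 to 39.3%), against 25.3%. Inside the genes the distal regions numbered 138, 116, 112 and 162 in untreated, day 1, day 7 and day 28 epithelium, and outside them 125, 156, 145 and 130. The set thus had a larger share lost and a smaller share gained than all genes at day 1, and the reverse at day 28. An enrichment floor common to all lists was also set, on fold minus 1 divided by the list's median over the 59902 shared regions. The fold cut-off thus differed between lists: all 140286 untreated regions stayed, and 110780 of 164684 at day 1. Because only day 1 regions were taken away, the number of losses at day 1 could only rise and that of gains only fall. A shift towards losses at day 1 thus follows from the floor itself, and all gene-linked regions showed it too. Of 178 day 1 distal regions 75 were gained (42.1%, against 44.4% of all gene-linked ones), and of 263 untreated ones 153 were lost (58.2%, against 49.0%).

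**Figure D2:**
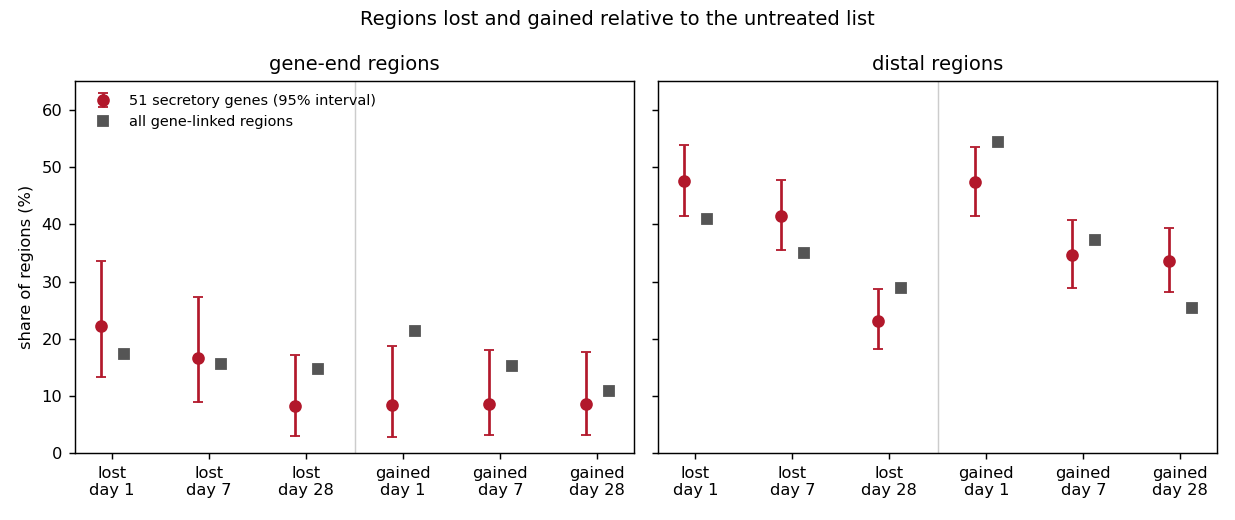
Share of regions (per cent) lost from the untreated list or gained relative to it at days 1, 7 and 28, for gene-end (left) and distal (right) regions; circles with exact 95% intervals (counting error only) are the regions of the 51 genes and squares all gene-linked regions. The circle for distal regions lies above the square for losses at day 1 (47.5%, against 40.8%) and below it at day 28 (23.2%, against 28.9%).

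Most of the losses were not seen at day 28. Of the 16 gene-end regions lost at day 1, 12 (75.0%, interval 47.6 to 92.7%) overlapped a day 28 peak, against 48.8% of all such regions, and of the 125 distal ones 74 did (59.2%, interval 50.1 to 67.9%), against 51.7%. When regions of the 4 lists were merged, 53 of the 75 gene-end regions (70.7%) were present in all 4 lists, against 60.4% of all gene-linked ones, and 99 of 418 distal regions (23.7%, against 23.6%). Distal regions present in untreated and day 28 epithelium only numbered 36 (8.61%, against 5.73%), and those at day 28 only numbered 50 (12.0%, against 5.56%). Regions seen at day 1 only were 63 of 418 distal (15.1%, against 23.5%) and 1 of 75 gene-end regions (1.33%, against 10.3%).

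Counted over genes, 50 of the 51 had a region in the untreated or a later list, Pdia3 being the exception. At day 1, 38 of the 50 (76.0%) lost at least 1 region, against 64.3% of all genes with a region in either list, and 35 (70.0%) gained at least 1, against 72.9%. More regions were lost than gained at 23 (46.0%, against 32%) and more were gained at 18 (36.0%, against 48.9%). At day 7 more was lost at 25 of the 50 genes (50.0%, against 36.9%) and more was gained at 11 (22.0%, against 37.9%). At day 28 more was lost at 14 (28.0%, against 40.6%) and more was gained at 28 (56.0%, against 28.1%). These shares also depend on how many regions a gene has. The totals were 141 lost and 134 gained regions at day 1, 121 and 95 at day 7, and 67 and 104 at day 28. With gene-end and distal regions counted as one, 37.1%, 31.8% and 26.7% of all gene-linked untreated regions were lost at days 1, 7 and 28, and 49.9%, 33.9% and 23% of the regions in those lists were gained. Of all gene-linked regions lost at day 1, 51.4% overlapped a day 28 peak. The shares given below for each role are to be read against these, and none of the differences was tested.

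**Figure D3:**
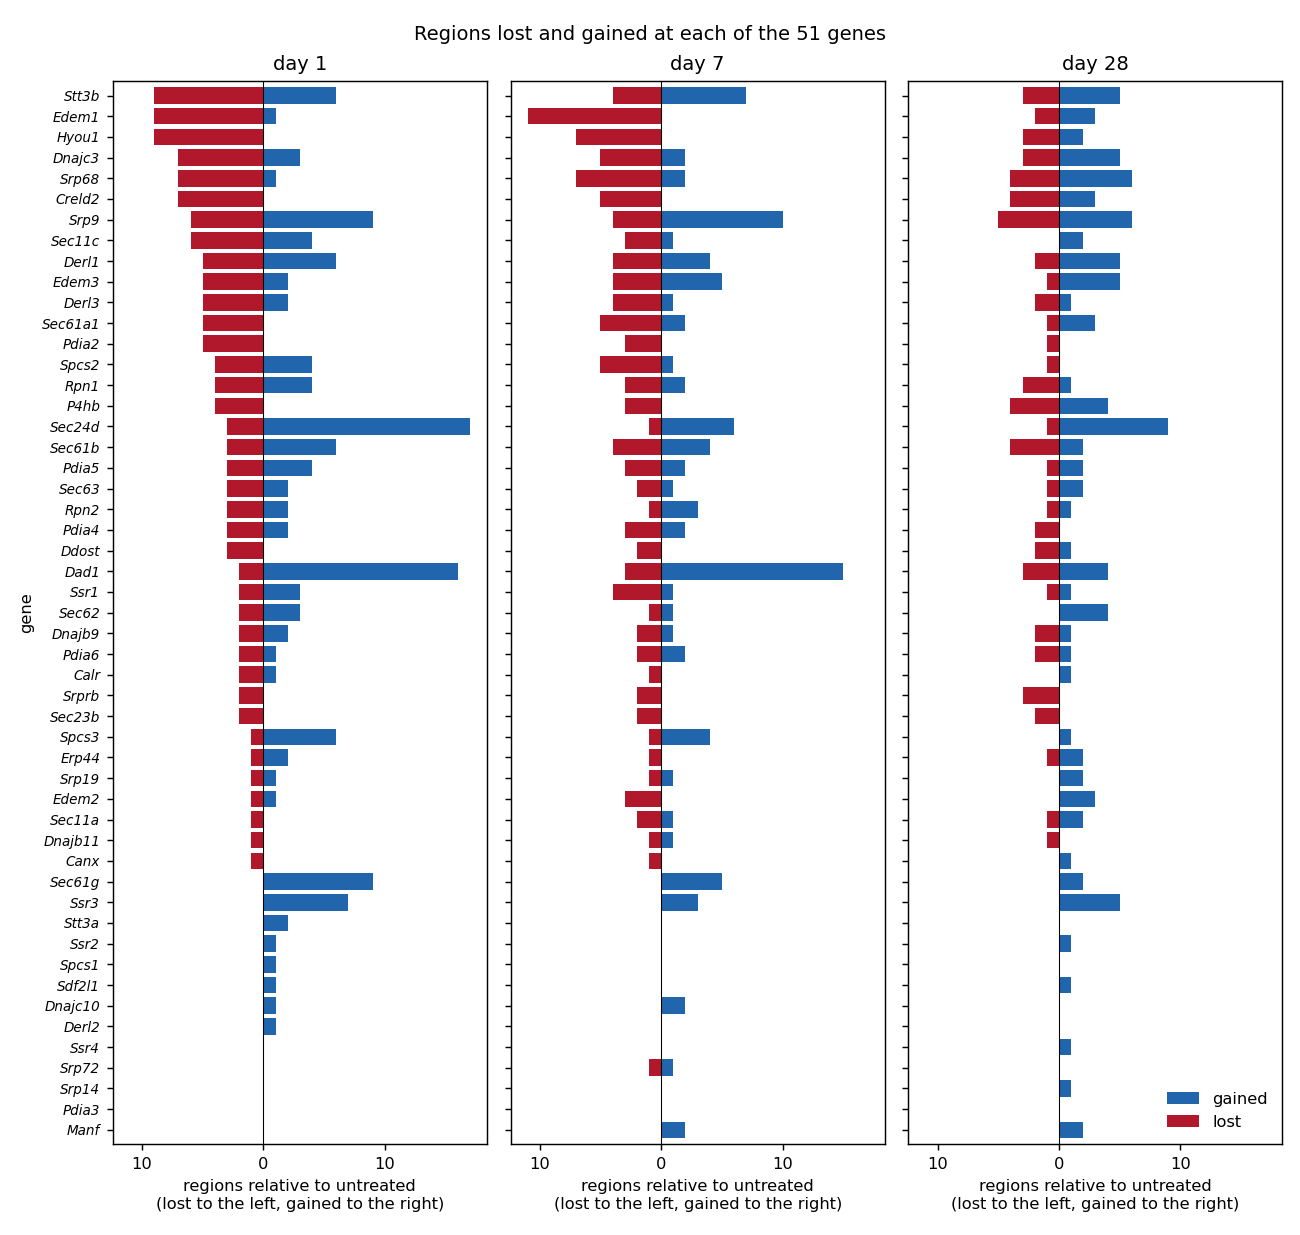
Number of regions lost from the untreated list (bars to the left) and gained relative to it (bars to the right) at each of the 51 genes at days 1, 7 and 28, ordered by losses at day 1. Losses reach 9 regions at Stt3b, Edem1 and Hyou1 at day 1, gains reach 17 at Sec24d and 16 at Dad1, and the day 28 bars are shorter on the left.

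The 15 translocon and signal recognition particle genes had 92, 104, 94 and 112 regions in untreated, day 1, day 7 and day 28 epithelium. They lost 31 (33.7%) and gained 42 (40.4%) at day 1, and lost 19 (20.7%) and gained 36 (32.1%) at day 28; each of their 19 untreated gene-end regions overlapped a day 1 peak. Srp9, for a protein of the particle's Alu domain, had 20, 24, 26 and 22 regions, with 9, 10 and 6 gained and 6, 4 and 5 lost at days 1, 7 and 28. The day 1 gained region with the highest fold of the whole set, 40.3, lay 33258 bp before Srp9 (chr1:182091020-182091751). An untreated peak with a fold of 7.74 lay next to it without overlap (chr1:182091794-182092695). With the lists merged, the region counted as present in untreated epithelium too. Sec61g, for the gamma subunit of the channel, had 3, 12, 8 and 5 regions and lost none at any time. All 9 of its day 1 gains lay 17019 to 42406 bp before the gene, the strongest with a fold of 32.8 at chr11:16537753-16538992. The interval is otherwise empty of coding genes; the next genes are Vstm2a on one side and Egfr, 243718 bp away, on the other, and the regions are tied to Sec61g by nearness alone.

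Srp68, for another protein of the particle, had 14, 5, 9 and 14 regions, with 7 of 14 lost at day 1. Among them was one with an untreated fold of 17.5 at chr11:116261033-116261542 inside the gene, whose merged region still held a day 1 peak. The 2 gained regions of Srp68 at day 7 had folds of 23.9 and 14.8, at chr11:116255733-116256750 and chr11:116253978-116254547, also inside the gene. Both lay in merged regions that also held untreated and day 1 peaks. At day 28 Srp68 gained 6 and lost 4. Sec61a1, for the pore subunit, had 8, 4, 7 and 10 regions and lost 5 without a gain at day 1; both of its gene-end regions were kept. Ssr3, for a subunit of the translocon-associated TRAP complex, had 3, 11, 6 and 8 regions, gaining 7, 3 and 5 and losing none. Sec62, for a protein that assists the channel, gained a region with a fold of 15.8 at day 7 (chr3:30795579-30795896, 2848 bp inside the gene) and had 4, 5, 4 and 9 regions. A day 1 peak lay in the same merged region as this gain. Sec61b, the beta subunit gene, had 5, 8, 5 and 3 regions and lost 4 of 5 at day 28, one of them with a fold of 5.93 at chr4:47499320-47499803. Srp19, Srp72, Srp14, Ssr2 and Ssr4 changed by at most 2 regions lost or gained at any time.

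The 5 signal peptidase genes had 24, 26, 21 and 24 regions, lost 12 (50%, against 37.1% of all) and gained 15 (57.7%, against 49.9%) at day 1, and of the 12 lost 11 were present again at day 28 (91.7%, against 51.4%), when 2 of 24 were missing. Sec11c, for a catalytic subunit, had 9, 7, 8 and 10 regions and lost 6 of 9 at day 1, all 6 of which overlapped a day 28 peak. Spcs3, for a non-catalytic subunit, had 4, 9, 9 and 6 regions and gained 6 at day 1. Spcs2, for another subunit, had 6, 6, 2 and 4 regions and lost 5 at day 7.

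The 6 oligosaccharyltransferase genes had 50, 57, 64 and 50 regions, with 21 lost (42%) and 30 gained (52.6%) at day 1, 13 (26%) and 27 (42.2%) at day 7, and 12 (24%) and 12 (24%) at day 28, each within 10 points of the share of all gene-linked regions. Stt3b, for a catalytic subunit, both lost and gained: 9 of its 16 untreated regions had no day 1 peak and 6 of 13 day 1 regions were new, the strongest with a fold of 30.3 at chr9:115315345-115315909, 5173 bp before the gene. Its promoter peak stayed at percentile 93.4, 93.7, 86.1 and 92.4. Dad1, for a small subunit known as defender against cell death, had 13, 26, 24 and 15 regions and the largest gains at day 7, with 16 at day 1 and 15 at day 7. Its neighbour is the T-cell receptor alpha locus (Tcra, chr14:52427967-54224198), a row of gene segments not counted as protein-coding, and 11 of the 16 day 1 gains and 13 of the 15 day 7 gains lay inside it. Leukocyte markers had 28 regions at day 1 and 18 at day 7, against 15 in untreated epithelium, and their part in the Dad1 gains was not tested. Rpn1, for the subunit ribophorin I, had 11, 11, 10 and 9 regions; the lost region with the highest fold at day 28, 6.76, lay 42298 bp past it at chr6:88147336-88147747.

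The 8 disulfide isomerase genes had 43, 33, 37 and 38 regions. They lost 18 (41.9%) and gained 10 (30.3%, against 49.9% of all) at day 1, lost 15 (34.9%) and gained 8 (21.6%, against 33.9%) at day 7, and lost 11 (25.6%) and gained 9 (23.7%) at day 28. At Pdia2 the losses were complete: all 5 untreated regions lacked a day 1 peak, and 4 of the 5 overlapped one at day 28. Its regions had untreated folds of 2.80 to 11.4. The day 7 list had 3 regions at Pdia2, with folds of 4.03 to 7.25, and the day 28 list 3, with folds of 4.26 to 14.8. P4hb kept its promoter peak and lost 4 of 9 regions at day 1 and 4 at day 28, when it gained 4. Pdia4 had 12, 11, 11 and 10 regions; a weak start-side region with a fold of 4.12 was lost at day 1 and day 7 beside its main promoter peak. Pdia3, which folds glycoproteins with calreticulin and calnexin, had no region of its own in any list, and the peak over its promoter was assigned to Catsper2.

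The 9 chaperone and co-chaperone genes had the largest excess of losses over gains at day 1 among the 7 roles. Their regions numbered 53, 37, 45 and 54 in untreated, day 1, day 7 and day 28 epithelium, with 29 lost (54.7%, against 37.1% of all) and 7 gained (18.9%, against 49.9%) at day 1, 22 (41.5%, against 31.8%) and 6 (13.3%, against 33.9%) at day 7, and 13 (24.5%) and 16 (29.6%) at day 28. Of their distal regions 27 of 39 (69.2%) had no day 1 peak, against 40.8% of all gene-linked distal regions and 47.5% over the 51 genes; 17 of the 29 lost regions (58.6%, against 51.4%) overlapped a day 28 peak. Hyou1, for a BiP-related chaperone that also acts as its nucleotide exchange factor, had 11, 2, 5 and 9 regions and lost 9 at day 1 and 7 at day 7, with no gain at either time. The strongest region lost from the whole set at day 1, with a fold of 24.4, lay 3115 bp outside Hyou1 (chr9:44375690-44376703); peaks with folds of 9.40 at day 7 and 29.0 at day 28 overlapped it. The main gene-end peak of Hyou1 was kept, with folds of 114, 108, 125 and 152.

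Creld2 had 12, 9, 12 and 15 regions, lost 7 at day 1 and 5 at day 7 without a gain, and gained 3 at day 28. Dnajc3 had 12, 11, 13 and 14 regions and lost 7, 5 and 3 while gaining 3, 2 and 5 at days 1, 7 and 28; its strongest gained region at day 28 had a fold of 7.95 (chr14:118948934-118949247, 11132 bp inside the gene), the highest among the gains of the set at that time. Day 1 and day 7 peaks with folds of 5.99 and 5.37 overlapped the same place at Dnajc3. Dnajb9 lost a region with a fold of 5.60 at day 28, 29167 bp past the gene (chr12:44176481-44176867). Calr, Canx, Dnajb11, Sdf2l1 and Manf, the last for a secreted ER stress factor, each lost or gained at most 2 regions at any time.

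The 6 genes of ER-associated degradation had 52, 41, 41 and 58 regions, with 25 lost (48.1%, against 37.1% of all) and 13 gained (31.7%, against 49.9%) at day 1, 26 (50%, against 31.8%) and 10 (24.4%, against 33.9%) at day 7, and 7 (13.5%, against 26.7%) and 17 (29.3%, against 23%) at day 28; 20 of the 25 lost at day 1 (80%, against 51.4%) overlapped a day 28 peak. Edem1, for a lectin that marks misfolded glycoproteins for disposal, had 15, 7, 4 and 16 regions. It lost 9 at day 1 and 11 at day 7, and 7 of the 9 lost at day 1 overlapped a day 28 peak. The strongest of them, with an untreated fold of 22.6, lay 10003 bp inside Edem1 (chr6:108833409-108834664), was without a day 1 peak and overlapped peaks with folds of 6.72 at day 7 and 22.4 at day 28. Regions with folds of 8.40 and 7.41 (chr6:108837193-108837650 and chr6:108834916-108835579) were lost from Edem1 at day 7. The merged region of the second still held a day 7 peak. The single Edem1 gain at day 1, with a fold of 24.4 at chr6:108843396-108844652, was represented at day 28 by a pair of gained regions with folds of 3.97 and 5.68 in that list.

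Derl3 had 9, 8, 8 and 7 regions, of which 4, 1, 3 and 3 were at gene ends. It kept the main promoter peak and lost 3 weaker gene-end regions with folds of 3.62 to 5.60 at day 1. The merged regions of those with folds of 3.62 and 5.60 still held a day 1 peak. Derl1, a related gene, had 9, 10, 10 and 12 regions and lost a region with a fold of 15.0, 6758 bp inside the gene (chr15:57876004-57876440), at day 1 and day 7. Edem3 had 8, 4, 9 and 11 regions, losing 5 and gaining 2 at day 1 and losing 1 and gaining 5 at day 28. Edem2 changed little, with 10, 10, 9 and 11 regions.

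**Figure D4:**
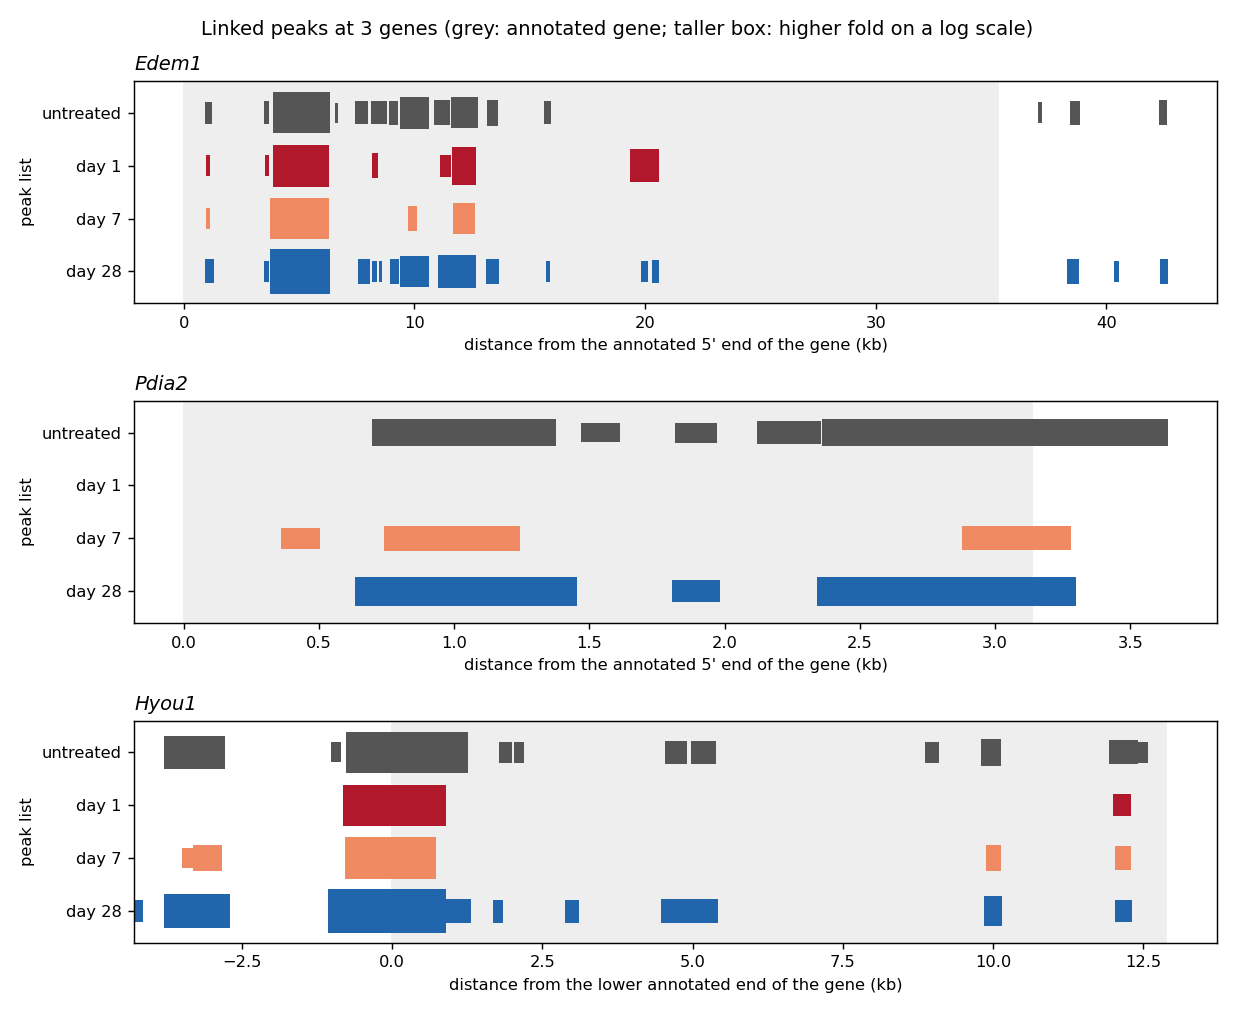
Linked peaks at Edem1, Pdia2 and Hyou1 in untreated, day 1, day 7 and day 28 epithelium, placed by distance (kb) from the annotated 5' end of the gene, or from its lower end at Hyou1; grey marks the annotated gene and taller boxes a higher fold on a log scale. Edem1 has 15, 7, 4 and 16 peaks, Pdia2 5, 0, 3 and 3, and Hyou1 11, 2, 5 and 9, while the tallest box of Edem1 and of Hyou1 is present in every list.

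The 2 COPII coat genes differed from each other in their counts. Sec24d, for the coat subunit that selects cargo, had 18, 32, 23 and 25 regions, the largest gains of any gene in the set at day 1 and day 28, with 17, 6 and 9 gained and 3, 1 and 1 lost at days 1, 7 and 28. Of its 17 day 1 gains the strongest had a fold of 10.2 (chr3:123278286-123278613), against 106 for its promoter peak in that list. Its day 28 gains had folds of up to 7.66 (chr3:123283243-123283477) and 7.38 (chr3:123259448-123259796). A day 1 peak lay in the merged region of the first. The day 1 gains of Sec24d all lay inside this long gene. Sec23b, for the partner subunit, had 3, 1, 1 and 1 regions and kept its promoter peak.

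A list of other genes of the same pathway was counted in the same way. It held 43 genes, among them those of BiP, GRP94, the Sel1l-Hrd1 degradation complex and further COPII subunits. At day 1, 14 of their 65 gene-end regions (21.5%) and 130 of 236 distal regions (55.1%) had no peak, against 17.4% and 40.8% of all gene-linked ones. At day 7 it was 9 (13.8%, against 15.5%) and 106 (44.9%, against 34.9%). At day 28 it was 4 (6.15%, against 14.7%) and 47 (19.9%, against 28.9%). New distal regions were 79 of 188 (42.0%, against 54.4%) at day 1, 58 of 210 (27.6%, against 37.2%) at day 7 and 70 of 254 (27.6%, against 25.3%) at day 28. The 18 regulators of the unfolded protein response lost 6 of 28 gene-end regions (21.4%, against 17.4% of all) and 107 of 209 distal regions (51.2%, against 40.8%) at day 1, and 60 of their 218 distal regions (27.5%, against 25.3%) were new at day 28. The digestive enzyme genes lost 52 of 58 gene-end regions (89.7%, against 17.4%) and 176 of 208 distal regions (84.6%, against 40.8%) at day 1. At day 28 they lost 3 (5.17%, against 14.7%) and 24 (11.5%, against 28.9%). The 6 acinar transcription factor genes lost 97 of 123 distal regions (78.9%, against 40.8%) at day 1. Differences between these lists were not tested.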

How the data were processed

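Of 7 ATAC-seq samples, 4 were used, each as a narrowPeak list: untreated, day 1, day 7 and day 28. Groups came from the labels. Per the submitters' processing notes the tools were MACS2 2.1.0.20150731, Bowtie2 2.2.6, cutadapt, deepTools and SAMtools, and the build was GRCm38 (mm10). How reads were filtered or shifted, and how many there were, is not given in the sources used here. Each region's fold, as deposited, is the ratio of summit pileup to background, with 1 added to both. The deposited −log10 p and −log10 q measure the same enrichment, the authors' score is a rescaled q-value, and the summit offset gives the summit's position. A background pileup per list was recovered from fold and p: it made 100% of the pileups whole within 0.05.

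Regions on the 19 autosomes and X were compared by overlap of at least 1 bp: an untreated region without a later peak was lost, and a later region without an untreated peak was gained. Genes came from the RefSeq table of GRCm38.p6. Each summit was linked to the nearest coding gene span within 50 kb; all 51 symbols matched. Shares carry exact Clopper-Pearson 95% intervals. Computation used Python 3.11.15, pandas 2.3.3, numpy 2.4.6 and scipy 1.17.1; losses and gains were tested on simulated lists, and bedtools 2.31.1 found as many losses at day 1. Sequences came from RefSeq promoter windows. Genes were named by rule: those losing all gene-end regions or lacking one, the 8 with the most lost and gained regions at day 1 and the 6 at days 7 and 28, and per comparison the 3 gained and 3 lost regions with the highest fold; other genes, motif stretches and rank extremes were chosen after their values were seen. The members and lists were chosen with earlier results of these data known.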

Additional observations from a re-analysis of the deposited data

How the results depend on the processing

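The 14 counts were recomputed under 8 other settings and the 3 distal gains under a ninth, 115 values in all, of which 88 stayed within 1.5 times the value reported and 27 did not. The distal losses at day 1 stayed above the share of all gene-linked regions in 8 of these 8 settings and the distal gains at day 28 in 9 of 9. The gene-end losses at day 1 and at day 7 did so in 7 of 8 each, the exception being a gene end of 500 bp. The gene-end gains at day 28 lay below that share as reported, but above it with a gene end of 2 kb (16.5%, against 14.7%). Requiring an overlap of 50% of the region gave 20 gene-end losses at day 7 and 11 gene-end gains at day 28. A −log10 q of at least 5 in both lists gave 1 gene-end gain at day 7 and 63 distal gains at day 28. The same threshold for the present region with no peak at all in the other list gave 0 gene-end gains at day 7, 37 distal losses, 3 gene-end gains and 52 distal gains at day 28. The common enrichment floor described above, which is a different fold in each list, gave 1 gene-end and 75 distal gains at day 1 and 2 gene-end gains at day 7. A link of 10 kb gave 74 distal gains at day 1 and 45 at day 7.

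A gene end of 500 bp gave 5 gene-end losses and 0 gains at day 1, 3 and 0 at day 7, 2 and 2 at day 28, and 3 regions lost at day 1 and present at day 28; a gene end of 2 kb gave 39 and 14, 35 and 11, 15 and 19, and 28 in the same order, fewer and more regions being counted as gene ends. The causes of the other changes were not tested. Leaving out regions inside Tcra, an alternative chosen after seeing the data, changed none of the 3 distal gains by over 1.5 times. No paired analysis was possible because each group has 1 library, and leaving out a replicate was not possible for the same reason. Peaks near the floor of a list (fold 2.47, 2.36, 2.95 and 2.84 in untreated, day 1, day 7 and day 28 epithelium) can be missed in a less enriched library, and the untreated library was the least enriched.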
